A study of Mus musculus with 6 samples.

Results

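Fibroblast growth factors (FGFs) signal by binding receptor tyrosine kinases on the cell surface together with heparan sulfate chains or with a protein of the klotho family, and the activated receptor passes the signal through the adaptor FRS2 to the RAS and ERK kinases. FGF15, whose human counterpart is FGF19, is a hormone of the ileal epithelium: bile acids induce it through the nuclear receptor FXR, and it acts on hepatocytes through FGFR4 with β-klotho to restrain bile acid synthesis. The genes described here are the 4 FGF receptor genes Fgfr1, Fgfr2, Fgfr3 and Fgfr4, the ligand gene Fgf15, the β-klotho gene Klb and Fgfbp1, whose secreted product releases FGFs from matrix heparan sulfate. They were found by symbol, 7 of the 24594 rows of the count table. The members were chosen by their measured differences between NIBR-LTSi and DMSO in these same libraries, so for these 7 genes the values by library, the fold changes and their errors are a description, and no test is given for them.

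Messenger RNA was sequenced from mouse small-intestinal organoids, cultures of epithelium with crypt-like and villus-like parts. The organoids had been grown from single cells for 96 h and then received NIBR-LTSi, a known inhibitor of the Hippo pathway kinases LATS1 and LATS2, at 5 uM for 24 h, or an equal amount of the solvent DMSO for the same time. Each group has 3 libraries, of 19323994 to 26767043 counts with NIBR-LTSi and 18395427 to 25238809 counts with DMSO. Strain, sex, age and the segment of the small intestine were not given in the sources used here.

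The libraries carried epithelial transcripts throughout. The 9 epithelial markers (Epcam, Cdh1, Vil1, Cdx1, Cdx2, Krt8, Krt20, Fabp1 and Lgals4) summed to between 15549 and 16804 CPM (counts scaled to library size by TMM factors) with NIBR-LTSi and between 17358 and 18193 CPM with DMSO. These markers did not move together. At an edgeR adjusted p under 0.05, Krt8 was higher with NIBR-LTSi, Fabp1, Vil1 and Cdx1 were lower and 5 were not called. Fabp1, the largest of them, averaged 5148 CPM with NIBR-LTSi and 7369 CPM with DMSO, and Krt8 3022 and 2198 CPM. Of 10 mesenchymal markers 8 averaged under 1 CPM, and their sum was 6.76 to 7.40 CPM with NIBR-LTSi and 8.65 to 10.4 CPM with DMSO. Dcn, Lum and Thy1 were at 0 in all libraries. Hepatocytes are the textbook site of FGFR4 with β-klotho, and their 7 markers summed to 2.16 to 3.25 CPM with NIBR-LTSi and 1.80 to 1.94 CPM with DMSO, with Ahsg and Cyp7a1 at 0. Endothelial markers summed to at most 0.755 CPM, glial and neuronal markers to at most 0.981 CPM and immune markers to at most 14.1 CPM in any library.

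Promoter sequence is shown for 3 genes: Fgfr4 and Klb, which encode the receptor pair for FGF15, and Fgfbp1, the most abundant transcript of the group. Each window runs from 250 bases before to 50 bases after an annotated start site (GRCm38.p6, the assembly called mm10 in the submitters' notes). That site is the gene start for Fgfr4 and Klb, but for Fgfbp1 it lies inside the gene. Windows were found for 5 of the 7 genes. Capitals mark CATTCC or its reverse GGAATG, the core letters bound by TEAD proteins, the DNA-binding partners of the LATS targets YAP and TAZ. The windows lie at chr13:55152568-55152867 on the plus strand (Fgfr4), chr5:65348161-65348460 on the plus strand (Klb) and chr5:43981750-43982049 on the minus strand (Fgfbp1).
Fgfr4: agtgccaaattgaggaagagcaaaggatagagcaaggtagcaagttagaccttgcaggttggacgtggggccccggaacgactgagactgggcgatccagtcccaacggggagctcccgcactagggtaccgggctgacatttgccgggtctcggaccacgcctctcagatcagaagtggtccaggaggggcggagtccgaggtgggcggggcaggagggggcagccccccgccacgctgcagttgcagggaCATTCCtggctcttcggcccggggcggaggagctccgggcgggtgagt
Klb: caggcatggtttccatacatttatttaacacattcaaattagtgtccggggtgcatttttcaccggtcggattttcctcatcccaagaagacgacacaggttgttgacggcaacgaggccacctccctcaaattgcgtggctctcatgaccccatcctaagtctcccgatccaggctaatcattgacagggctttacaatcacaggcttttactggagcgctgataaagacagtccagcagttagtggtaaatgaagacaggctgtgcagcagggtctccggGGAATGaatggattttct
Fgfbp1: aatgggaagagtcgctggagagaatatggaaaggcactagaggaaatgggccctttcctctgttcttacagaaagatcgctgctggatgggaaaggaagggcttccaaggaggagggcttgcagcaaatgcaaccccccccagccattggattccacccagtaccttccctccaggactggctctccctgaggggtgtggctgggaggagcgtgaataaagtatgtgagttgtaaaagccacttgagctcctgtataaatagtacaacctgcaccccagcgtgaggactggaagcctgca

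The Fgfr4 window holds CATTCC at bases 3 to 8 after the gene start. The Klb window holds GGAATG at bases 33 to 38 after it. The windows of Fgfbp1, Fgfr2 and Fgfr3 (2 windows) do not hold these letters. Over 32851 promoter windows of the same length 14.7% hold CATTCC on either strand, so a match in these letters is common. No window of the group held the AP-1 letters TGANTCA, which 7.81% of all windows hold. The Fgfr4 window was 65.3% G and C, the Klb window 48.3% and the Fgfbp1 window 53.3%, beside a median of 52.7% over all windows.

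With NIBR-LTSi, 5 of the 7 genes were higher in every library than in any DMSO library: Fgfr4 (7.14-fold), Fgf15 (4.46-fold), Fgfbp1 (1.78-fold), Fgfr3 (1.73-fold) and Fgfr2 (1.23-fold). Klb was near the limit of detection in both groups and Fgfr1 was all but undetected. Among all 12592 genes that passed the filter on low counts, the groups' libraries did not overlap for 52.5%, with 28% higher and 24.5% lower. Since the genes were chosen with this contrast known, their count is set beside that share only for scale. Bulk RNA cannot tell fewer cells of a type from less RNA per cell, and this holds for each level below.

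**Figure D1:**
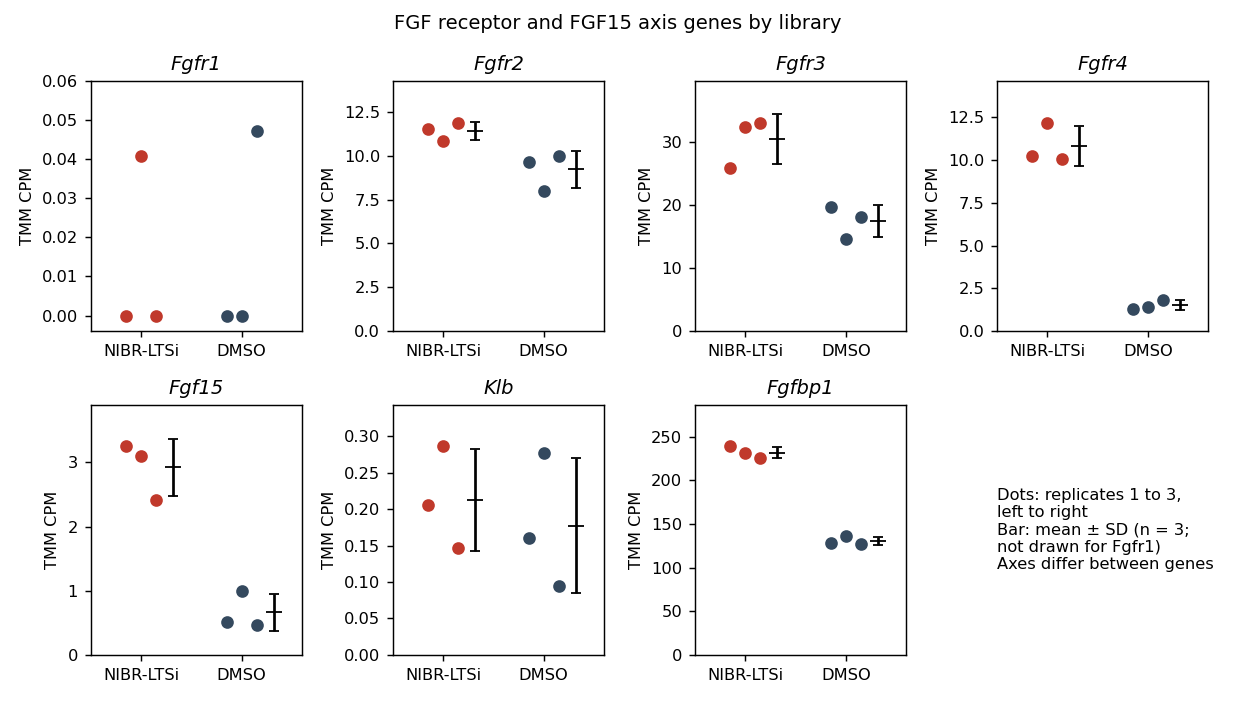
Level of each gene in every library, in TMM-scaled CPM (vertical axis, different for each gene), with the NIBR-LTSi libraries left of the DMSO libraries and the mean ± SD over 3 libraries as a bar (not drawn for Fgfr1). The groups separate for Fgfr2, Fgfr3, Fgfr4, Fgf15 and Fgfbp1, most widely for Fgfr4, and overlap for Klb and Fgfr1.

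Fgfr4 (Entrez 14186; chromosome 13, 55152818 to 55168759), the FGF15 receptor gene, was at 10.2, 12.2 and 10.1 CPM in NIBR-LTSi replicates 1 to 3, against 1.32, 1.39 and 1.84 CPM in DMSO replicates 1 to 3. The groups lie far apart: the lowest NIBR-LTSi library was 5.48 times the highest DMSO library. The log2 fold change was 2.83 ± 0.15 (standard error, SE), and 28 of the 12592 genes, Fgfr4 included, had one at least as high. In reads, Fgfr4 had 198, 298 and 276 counts with NIBR-LTSi and 33, 25 and 39 counts with DMSO. The coefficient of variation between replicates was 10.9% with NIBR-LTSi and 18.6% with DMSO. Counting error alone gives 6.23% and 17.6% at this depth, so only the DMSO spread was close to it.

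Fgfr3 (Entrez 14184; chromosome 5, 33721724 to 33737068), a receptor known in the intestine from crypt development, was the most abundant receptor transcript in both groups. It was at 26.0, 32.5 and 33.1 CPM in NIBR-LTSi replicates 1 to 3, against 19.8, 14.7 and 18.2 CPM in DMSO replicates 1 to 3. The groups did not overlap, but the libraries within each were spread (coefficient of variation 12.9% with NIBR-LTSi and 14.7% with DMSO, beside 3.69% and 5.12% from counting error). The lowest library of each group, NIBR-LTSi replicate 1 and DMSO replicate 2, was also the one with the fewest total counts, and the part of depth in this was not tested. The log2 fold change was 0.79 ± 0.13 (SE).

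Fgfr2 (Entrez 14183; chromosome 7, 130162451 to 130266808), whose epithelial splice form is the receptor for FGF7 and FGF10, was at 11.5, 10.8 and 11.9 CPM in NIBR-LTSi replicates 1 to 3, against 9.65, 7.995 and 10.01 CPM in DMSO replicates 1 to 3. The groups are separate by a narrow margin, with the lowest NIBR-LTSi library 1.08 times the highest DMSO library. The log2 fold change was 0.30 ± 0.10 (SE). Counts per gene do not separate the splice forms of Fgfr2 or Fgfr3. Fgfr1 (Entrez 14182; chromosome 8, 25518759 to 25575718), the main receptor of mesenchyme, had 1 count in all NIBR-LTSi libraries together (exact Poisson 95% interval 0.0253 to 5.57) and 1 count in all DMSO libraries together, so no fold is given.

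Divided by gene width, the levels of the receptors can be set beside each other. With NIBR-LTSi, Fgfr3 was at 4.27 ± 0.55, Fgfr4 at 3.06 ± 0.33 and Fgfr2 at 1.58 ± 0.07 CPM per kb of gene width (SD, n = 3), with no overlap between neighbours in this order. With DMSO the order was different: Fgfr3 at 2.45 ± 0.36, Fgfr2 at 1.27 ± 0.15 and Fgfr4 at 0.428 ± 0.080 CPM per kb (SD, n = 3), again without overlap. Fgfr4 thus stood above Fgfr2 in every NIBR-LTSi library and below it in every DMSO library. The ratio of Fgfr4 to Fgfr2 within a library, which does not depend on scaling between libraries, was 1.81, 2.30 and 1.74 in NIBR-LTSi replicates 1 to 3, against 0.280, 0.355 and 0.376 in DMSO replicates 1 to 3.

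The summed receptor level was 8.90 ± 0.71 CPM per kb with NIBR-LTSi and 4.16 ± 0.52 CPM per kb with DMSO (SD, n = 3 each), 2.14 times as high with the inhibitor. Its composition differed as well. Fgfr4 made up 34.4 ± 2.7% of the sum with NIBR-LTSi and 10.4 ± 1.8% with DMSO. Fgfr3 made up 47.8 ± 3.0% with NIBR-LTSi and 58.9 ± 2.5% with DMSO, and Fgfr2 17.8 ± 1.9% with NIBR-LTSi and 30.7 ± 0.7% with DMSO (SD, n = 3 each). Fgfr2 and Fgfr3 therefore had smaller shares with NIBR-LTSi while their own levels were higher. These shares rest on the widths in the table: taken from counts alone, Fgfr4 was 20.6% of the receptor total with NIBR-LTSi and 5.39% with DMSO, and Fgfr2 was 21.7% with NIBR-LTSi and 32.6% with DMSO. On that scale Fgfr4 exceeded Fgfr2 in 1 of the 3 NIBR-LTSi libraries, replicate 2 (21.9% for Fgfr4 and 19.5% for Fgfr2).

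**Figure D2:**
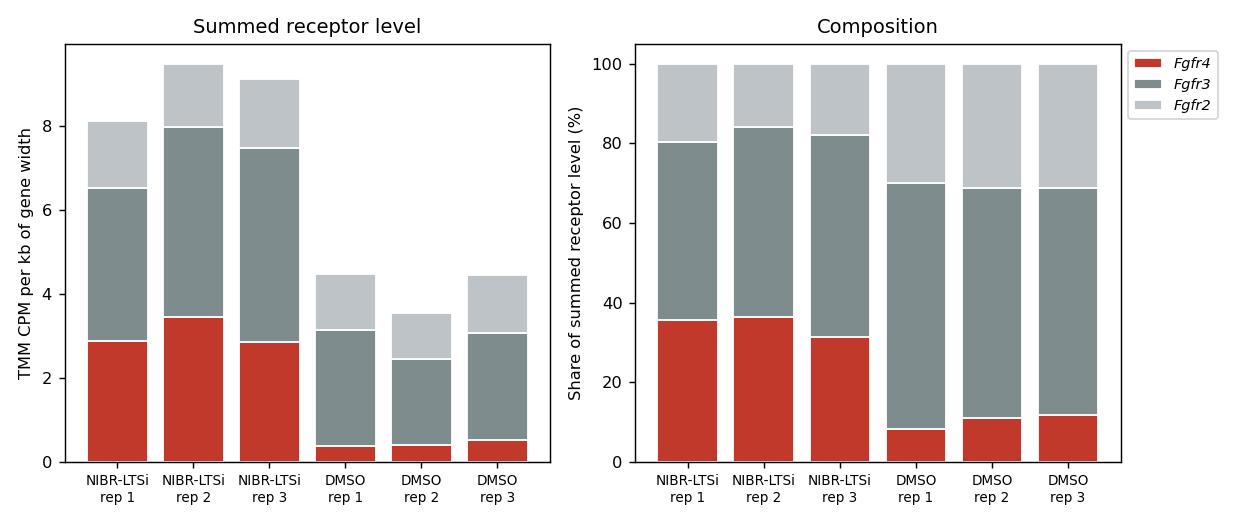
Left, the summed level of Fgfr2, Fgfr3 and Fgfr4 in each library in CPM per kb of gene width; right, the percentage of that sum from each gene, with NIBR-LTSi libraries left of DMSO libraries. The Fgfr4 portion is 31.2 to 36.3% in the NIBR-LTSi libraries and 8.35 to 11.7% in the DMSO libraries.

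Fgf15 (Entrez 14170; chromosome 7, 144896532 to 144900953), the ligand gene, was a low transcript in both groups. It had 63, 76 and 66 counts in NIBR-LTSi replicates 1 to 3 and 13, 18 and 10 counts in DMSO replicates 1 to 3. In CPM this is 3.25, 3.11 and 2.41 with NIBR-LTSi, against 0.520, 0.999 and 0.472 with DMSO. Every NIBR-LTSi library was above every DMSO library, the closest pair by 2.41 times, and the log2 fold change was 2.16 ± 0.29 (SE). The DMSO libraries varied by 43.9% where counting error gives 27.1%, and 71 of the 12592 genes, Fgf15 included, had a log2 fold change at least as high.

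The level of Fgf15 per kb was 1.38 ± 0.21 with NIBR-LTSi and 0.313 ± 0.137 with DMSO (SD, n = 3 each). With NIBR-LTSi its libraries overlapped those of Fgfr2, and with DMSO those of Fgfr4. The ratio of Fgf15 to Fgfr4 per kb was 0.452 ± 0.070 with NIBR-LTSi and 0.762 ± 0.397 with DMSO (SD, n = 3 each), and these ratios overlapped between the groups. Reads of Fgf15 could include antisense RNA, since antisense genes overlap it in the GENCODE annotation. The same holds for Fgfr1 and Fgfr3, and the strand setting of the counting was not given in the sources used here. Of the antisense genes looked up, only Gm16159 was among the counted genes, with 2 counts over all libraries.

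Klb (Entrez 83379; chromosome 5, 65348411 to 65386957), which encodes the β-klotho co-receptor that FGFR4 needs to bind FGF15, had 4, 7 and 4 counts in NIBR-LTSi replicates 1 to 3 and 4, 5 and 2 counts in DMSO replicates 1 to 3. It did not pass the filter on low counts. The groups overlapped, and the ratio of NIBR-LTSi to DMSO, scaled for library size, was 1.23 (exact 95% interval from counting error 0.527 to 2.96). Per kb, Klb was at 0.0601 ± 0.0198 CPM with NIBR-LTSi and 0.0501 ± 0.0262 CPM with DMSO (SD, n = 3 each), below Fgfr4 in every library.

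Fgfbp1 (Entrez 14181; chromosome 5, 43978858 to 43981828), the carrier gene, was by far the most abundant of the group. It was at 239, 231 and 225 CPM in NIBR-LTSi replicates 1 to 3, against 128, 136 and 127 CPM in DMSO replicates 1 to 3. The libraries of each group lie close together, with a coefficient of variation of 2.89% with NIBR-LTSi and 3.66% with DMSO. Counting error alone gives 1.35% and 1.90%. The groups are well apart, with a log2 fold change of 0.83 ± 0.04 (SE). Per kb it was higher than 98.1% of the tested genes with NIBR-LTSi and 95.8% with DMSO. The percentile of Fgfr4 on the same scale was 34.3 with NIBR-LTSi and 10.7 with DMSO.

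The rest of the pathway was read from lists by role, and here "rose" and "fell" mean an adjusted p under 0.05 in the edgeR quasi-likelihood test over all 12592 genes. By that rule 42% of all tested genes changed, 22.8% higher and 19.2% lower with NIBR-LTSi, and over all of them the log2 fold change had a median of 0.02. The lists were chosen with earlier results of these data known, so their shares called are set beside that 42% only for scale. The p-values of listed genes carry the same limit. Among the other FGF family genes few were expressed. Only 4 of 21 passed the filter and 8 had no read in any library, among them Fgf10; Fgf7, which like Fgf10 comes from mesenchyme in the gut, had 5 reads over all 6 libraries. Fgf1, a ligand for every FGF receptor, rose: it was at 5.06, 5.44 and 5.44 CPM in NIBR-LTSi replicates 1 to 3 and 3.36, 2.998 and 3.78 CPM in DMSO replicates 1 to 3 (log2 fold change 0.65 ± 0.13, edgeR adjusted p = 0.00217). Fgf9, a secreted ligand of epithelia, was at 2.54 ± 0.12 CPM with NIBR-LTSi and 2.50 ± 0.25 CPM with DMSO (SD, n = 3 each; edgeR adjusted p = 0.936). The other tested genes encode intracellular FGF homologues that do not act as ligands: Fgf11 fell (log2 fold change -0.69 ± 0.17, edgeR adjusted p = 0.00587), and Fgf14 was at 0.450 ± 0.148 CPM with NIBR-LTSi and 0.466 ± 0.077 CPM with DMSO.

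Of 9 genes for further co-receptors, a decoy receptor and FGF receptor partners, 4 passed the filter and 2 rose, and the median log2 fold change was 0.26. The share called was 50%, beside 42% over all genes. By edgeR and by DESeq2 0 fell, and 1 was lower at an unadjusted p under 0.05 in edgeR. The α-klotho gene Kl was at 0 in all libraries. The adhesion molecule genes L1cam and Flrt3, whose products bind FGF receptors, rose by 0.52 ± 0.05 and 0.27 ± 0.05 on the log2 scale (edgeR adjusted p = 1.05e-05 and 6.71e-04). Fgfrl1, the receptor without a kinase domain, was at 4.94 ± 0.48 CPM with NIBR-LTSi and 6.23 ± 0.76 CPM with DMSO (SD, n = 3 each; log2 fold change -0.34, edgeR adjusted p = 0.0591). This is the gene lower at the unadjusted p, and it was called when DMSO replicate 3 was left out (edgeR adjusted p = 0.0298) or when DESeq2 size factors were used (edgeR adjusted p = 0.0480).

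Heparan sulfate holds FGFs to their receptors, and 18 of the 29 genes for its core proteins and enzymes passed the filter. Of these 5 rose, 2 fell and 11 were not called (median log2 fold change 0.06), 38.9% called beside 42% over all genes. The largest difference was in Hs3st1, which encodes a heparan sulfate 3-O-sulfotransferase. It was at 16.3, 17.7 and 14.98 CPM in NIBR-LTSi replicates 1 to 3, against 4.04, 4.39 and 3.78 CPM in DMSO replicates 1 to 3 (log2 fold change 2.01 ± 0.11, edgeR adjusted p = 4.28e-08). Glce, the epimerase of the chain, rose 1.40-fold and Sdc1, the syndecan of epithelia, 1.16-fold. The N-sulfotransferase gene Ndst1 and the glypican gene Gpc4 fell 1.18-fold and 1.19-fold, while Sdc4 was at 110 ± 4 CPM with NIBR-LTSi and 106 ± 5 CPM with DMSO (SD, n = 3 each; edgeR adjusted p = 0.448).

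**Figure D3:**
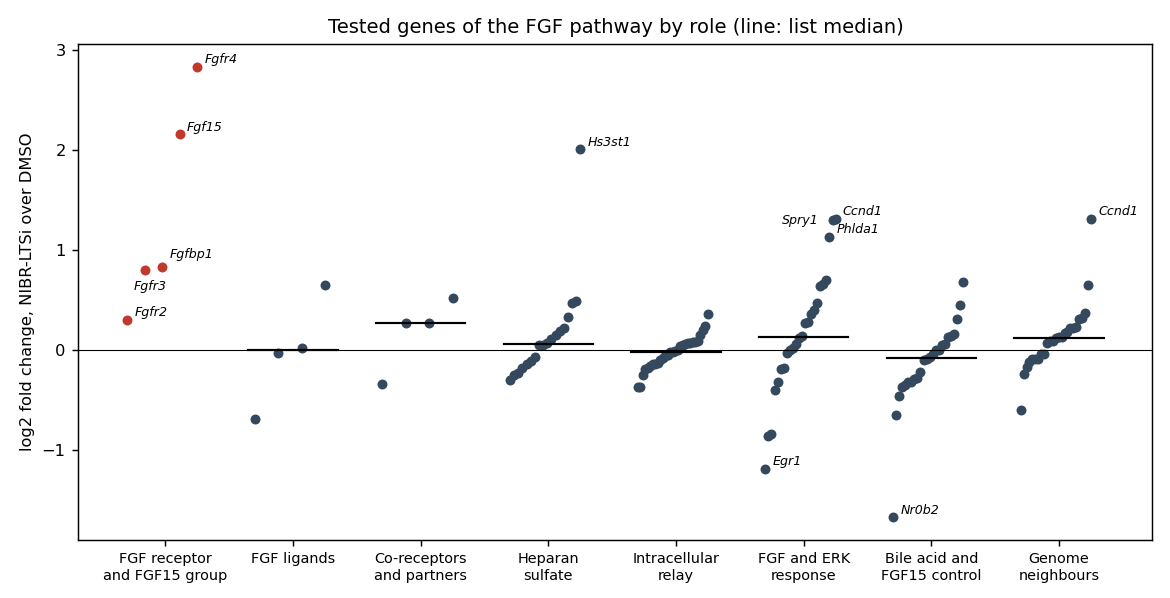
Log2 fold change, NIBR-LTSi over DMSO (vertical axis), of each tested gene of the FGF receptor and FGF15 group (red) and of the lists by role (dark), with the list median as a line (none for the red genes) and names for the group and for genes beyond 1 on the log2 scale. The intracellular relay lies between -0.38 and 0.36, while Fgfr4, Fgf15 and Hs3st1 lie above 2, and Ccnd1 appears in both lists that hold it.

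All 29 genes of the intracellular relay from receptor to ERK and AKT were tested: 3 rose, 5 fell and 21 were not called (median log2 fold change -0.02), with no value beyond 0.38 in either direction. This is 27.6% called, beside 42% over all genes, and without DMSO replicate 3 there were 5 that rose. Frs2, the adaptor of FGF receptors, was at 45.6 ± 1.0 CPM with NIBR-LTSi and 42.8 ± 2.2 CPM with DMSO (SD, n = 3 each; edgeR adjusted p = 0.212). Mapk3, which encodes ERK1, and its activating kinase Map2k2 fell 1.30-fold each, and the PI3-kinase gene Pik3cb fell 1.19-fold. Nras rose 1.18-fold and the phosphatase gene Ptpn11 (SHP2) 1.15-fold.

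Of 24 tested genes that respond to FGF and ERK signalling, 9 rose, 4 fell and 11 were not called (median log2 fold change 0.13). The share called was 54.2%, beside 42% over all genes, which also moved both ways. By DESeq2 6 were called higher, and with single libraries left out 6 to 8 were. Calls over all genes were also fewer in those runs, with 2206 higher by DESeq2 and 2201 to 2768 with a library left out. The transcription factor genes Etv5 and Etv4, classical FGF targets, rose 1.58-fold and 1.28-fold. Etv5 was at 8.98, 10.3 and 10.7 CPM in NIBR-LTSi replicates 1 to 3, against 6.04, 6.33 and 6.70 CPM in DMSO replicates 1 to 3 (edgeR adjusted p = 3.29e-04). The Etv4 call (edgeR adjusted p = 0.0227) was lost in DESeq2 (adjusted p = 0.134) and when NIBR-LTSi replicate 1 or 2 or DMSO replicate 1 or 3 was left out (edgeR adjusted p = 0.0567 to 0.0965). The feedback inhibitors Dusp6 (70.1 ± 2.7 CPM with NIBR-LTSi, 64.5 ± 2.5 CPM with DMSO) and Spry2 (30.2 ± 1.3 CPM with NIBR-LTSi, 27.5 ± 0.8 CPM with DMSO) were not called (edgeR adjusted p = 0.0701 and 0.0801), and both were called higher with library totals only. Another feedback inhibitor gene, Spry1, named here after its value was seen, rose 2.46-fold, at 17.2 ± 0.9 CPM with NIBR-LTSi and 7.04 ± 1.25 CPM with DMSO (SD, n = 3 each; edgeR adjusted p = 2.72e-06). Spry4 was low, at 1.39 ± 0.27 CPM with NIBR-LTSi and 0.879 ± 0.107 CPM with DMSO (edgeR adjusted p = 0.0741). Ccnd1, the cyclin D1 gene, and Phlda1 rose by 1.31 and 1.13 on the log2 scale, and the immediate-early genes Egr1 and Fos and the ERK phosphatase gene Dusp5 fell by 1.19, 0.84 and 0.86.

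In the list of bile acid and FGF15 control genes, 24 of 28 passed the filter: 4 rose, 9 fell and 11 were not called (median log2 fold change -0.09). The share called was 54.2%, beside 42% over all genes. Without NIBR-LTSi replicate 2, or without DMSO replicate 1, 2 rose. Nr0b2, which encodes the repressor SHP and is, like Fgf15, a textbook target of FXR in the ileum, had 4, 7 and 8 counts in NIBR-LTSi replicates 1 to 3, against 25, 10 and 21 counts in DMSO replicates 1 to 3. It fell by 1.68 ± 0.37 on the log2 scale (edgeR adjusted p = 0.00343). Its levels were 0.206 to 0.292 CPM with NIBR-LTSi, below the filter cutoff of 0.440 CPM, and 0.555 to 1.001 CPM with DMSO. Nr0b2 thus passed the filter only through the DMSO libraries. Its adjusted p and the lack of overlap between the groups are therefore given as description, not as support for a fall. The bile acid exporter subunit gene Slc51b fell to 12.6, 12.6 and 12.7 CPM with NIBR-LTSi, against 19.4, 20.6 and 19.5 CPM with DMSO (edgeR adjusted p = 1.29e-05). Its partner subunit Slc51a was at 59.0 ± 1.9 CPM with NIBR-LTSi and 53.7 ± 4.6 CPM with DMSO (SD, n = 3 each; edgeR adjusted p = 0.0942). It was called higher under library totals only (edgeR adjusted p = 0.0298) or when DMSO replicate 2 was left out (edgeR adjusted p = 0.0139).

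The gene of FXR itself, Nr1h4, was at 53.2, 54.0 and 55.0 CPM in NIBR-LTSi replicates 1 to 3 and 47.6, 49.1 and 49.1 CPM in DMSO replicates 1 to 3. This rise of 1.11-fold (edgeR adjusted p = 0.0175) was not called in DESeq2 (adjusted p = 0.118) or without NIBR-LTSi replicate 2, NIBR-LTSi replicate 3 or DMSO replicate 1 (edgeR adjusted p = 0.0768 to 0.0878). The gene of its partner receptor, Rxra, chosen after its value was seen, fell 1.22-fold. The defining genes of ileal bile acid uptake were low. Fabp6, the ileal bile acid binding protein, had 0 counts with NIBR-LTSi and 3 counts with DMSO over the 3 libraries of each group. The transporter gene Slc10a2 was at 1.63 ± 0.085 CPM with NIBR-LTSi and 1.02 ± 0.23 CPM with DMSO (SD, n = 3 each; edgeR adjusted p = 0.0505). Slc10a2 was called higher with library totals only (edgeR adjusted p = 0.0398), with the filter of at least 1 CPM (edgeR adjusted p = 0.0311), in limma-voom (adjusted p = 0.0365) and without DMSO replicate 3 (edgeR adjusted p = 0.0447).

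Other bile acid and sterol genes also moved in both directions. The exporter gene Abcc3 rose 1.36-fold and Srebf2, the sterol-sensing transcription factor gene, 1.24-fold. Cyp3a11 and Osgin1 fell 1.25-fold and 1.29-fold. Gata4, which marks the proximal small intestine and was named after its value was seen, was at 308 ± 2 CPM with NIBR-LTSi and 297 ± 12 CPM with DMSO (SD, n = 3 each; edgeR adjusted p = 0.306).

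**Figure D4:**
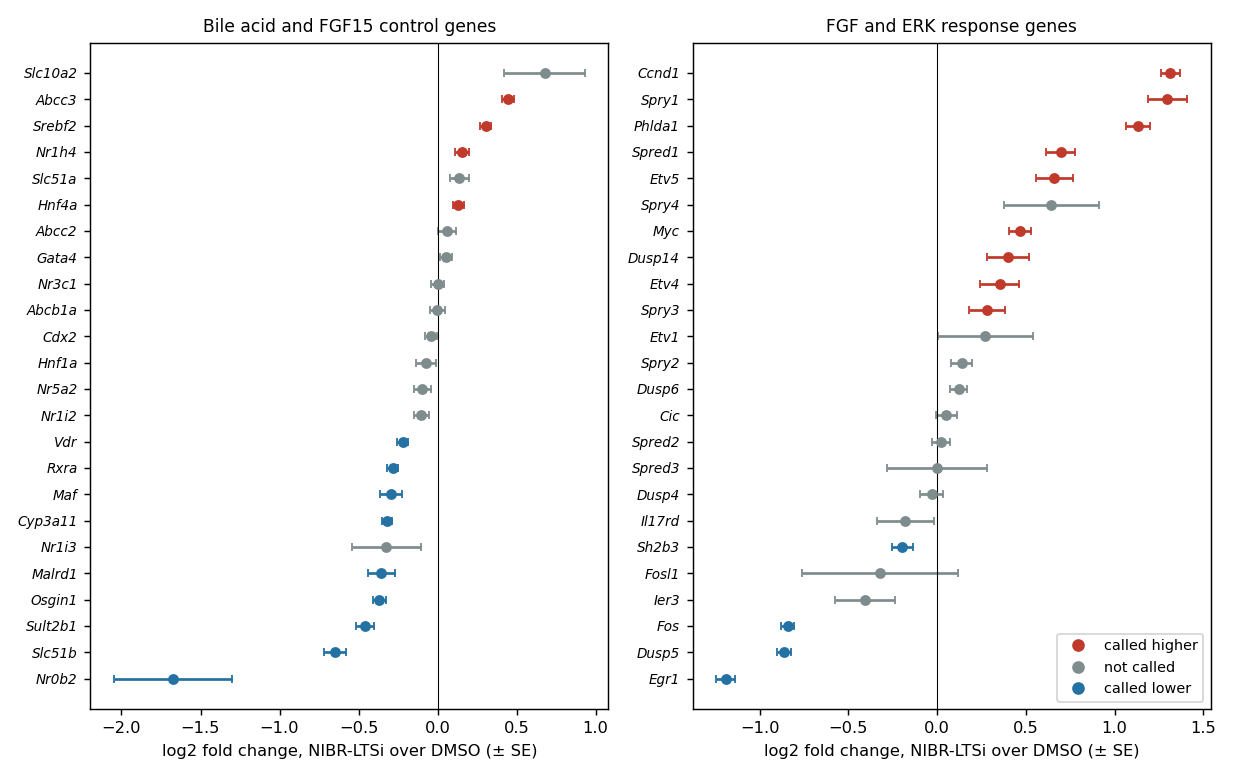
Log2 fold change, NIBR-LTSi over DMSO, with its SE (horizontal axis) for each tested gene for bile acid and FGF15 control (left) and for FGF and ERK response (right), coloured by the edgeR call at an adjusted p under 0.05. Nr0b2 lies lowest on the left at -1.68, and Ccnd1, Spry1 and Phlda1 lie highest on the right, above 1. Nr0b2 passed the filter on low counts only through the DMSO libraries.

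The 28 nearest protein-coding neighbours of the 7 genes, the closest 2 on each side, were read as a further list. Of 25 that passed the filter 6 rose and 3 fell, 36% called (median log2 fold change 0.12). Of the 4 neighbours of Fgfr4, given with their values already seen, Zfp346, Uimc1 and Nsd1 had log2 fold changes of 0.09, 0.18 and 0.12 and were not called, and Rab24 fell by 0.25 on that scale with groups that overlapped. On 1 side of Fgf15 the nearer gene LTO1, 14147 bases away and also named with its value seen, was at 15.7 ± 1.4 CPM with NIBR-LTSi and 13.96 ± 0.90 CPM with DMSO (SD, n = 3 each; edgeR adjusted p = 0.133). Ccnd1, 28978 bases away on that side, rose 2.49-fold (edgeR adjusted p = 6.93e-09), and the other side holds Fgf4, at 0 in all libraries, and Fgf3, with 4 reads. Tacc3 and Nsd2 beside Fgfr3 rose 1.57-fold and 1.24-fold, and of the neighbours of Fgfbp1, Cd38 rose 1.17-fold and Bst1 fell 1.52-fold.

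Likeness was measured over the 6 libraries as the Euclidean distance between log2 CPM profiles, each centred on its own mean. Candidates were tested genes with a mean of at least 5 CPM, without numbered gene models (Gm or Rik symbols). Closest to Fgfr4 were Cgnl1 (0.46), Tln2 (0.48) and Edn1 (0.50), with log2 fold changes of 2.58, 2.90 and 2.72. The candidates closest to Fgf15 were Sprr2a3 (0.56), Slamf9 (0.57) and Gngt2 (0.62). Fgf15 itself averaged 2.92 CPM with NIBR-LTSi and 0.664 CPM with DMSO, so genes at its own level were not candidates. Fgfbp1 had much closer neighbours in Phgdh (0.06), Mylk3 (0.06) and S100a11 (0.07). Closest to Fgfr3 were Rai1 (0.11), Chtf18 (0.13) and Kifc1 (0.19), and to Fgfr2 Morc2a (0.07), Ttll4 (0.10) and Zfyve26 (0.10). With 2 groups, any genes that differ by a similar amount lie close on this measure.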

How the data were processed

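The authors deposited 1 table of whole-number read counts per gene for 6 libraries, and a gene width in bases per gene. The submitters' processing notes name the build mm10 and edgeR, without a version. The aligner, the counting tool, the strand setting and how the width was defined were not given in the sources used here. Whether replicates came from separate cultures is not in the labels, so the p-values reflect the spread among these libraries alone, possibly a technical one.

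Counts were scaled with TMM factors and filtered with filterByExpr (minimum count 10), which kept 12592 of 24594 rows and 5 of the 7 genes described. Genes were tested in edgeR 4.0.16 under R 4.3.3 by quasi-likelihood (robust, two-sided), and p-values were adjusted by Benjamini-Hochberg across all tested genes. The SE of a log2 fold change is the change divided by the square root of F. Exact intervals cover counting error only. The procedure was also run on simulated data in which few genes differed and every gene had the same replicate variability. Those settings differ from these data, so the run does not show how low or variable genes behave here. Alternatives were DESeq2 (version 1.42.0), limma-voom (limma 3.58.1), 2 other scalings, 2 other filters, the replicate number as a block and each library left out. Replicate pairs of 1 group differed by more than sampling noise (chi-square per degree of freedom 4.65 to 11.9).

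Members and lists were chosen with earlier results of these data known. Named genes were the members, up to 5 genes per list with the smallest p among those called, the listed anchor genes and the tested FGF family genes; any other is said in the text to be named after its value was seen.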

Additional observations from a re-analysis of the deposited data

How the results depend on the processing

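The log2 fold changes of Fgfr2, Fgfr3, Fgfr4, Fgf15 and Fgfbp1 kept their sign and moved by less than the spread between replicates (1 SD) under every alternative run. Leaving out each library gave 2.73 to 2.999 for Fgfr4, 1.97 to 2.54 for Fgf15 and 0.80 to 0.86 for Fgfbp1. It gave 0.69 to 0.89 for Fgfr3 and 0.22 to 0.36 for Fgfr2. All 5 genes stayed without overlap, but removing a library from separate groups can hardly create overlap, so this is no further support. Genes called numbered 2201 to 2768 higher and 1934 to 2340 lower in the leave-one-out fits, 3425 and 1922 with library totals only and 2206 and 2246 in DESeq2. With DESeq2 size factors, 8 relay genes fell and 1 co-receptor gene fell. With library totals only, 7 relay genes and 7 bile acid genes rose. Leaving out single libraries gave 2 to 5 relay genes higher, 0 to 1 co-receptor genes lower and 2 to 5 bile acid genes higher. In the same fits 6 to 8 FGF and ERK response genes were called higher, against 9 with all libraries. Without division by gene width, shares of the receptor total with NIBR-LTSi were 20.6% for Fgfr4, 57.7% for Fgfr3 and 21.7% for Fgfr2, and with DMSO 5.39%, 61.9% and 32.6%. The cause of these shifts in counts was not tested, apart from the widths. The labels do not say whether the replicate numbers pair the samples. The correlation of deviations was 0.05, -0.30 and 0.56 for numbers 1 to 3, and not every library was closest to its own number. With 3 libraries per group these values cannot settle whether the samples are paired. With the replicate block 2687 genes were called higher and 2260 lower, and no named gene changed its call. Of the 42 named tested genes, no call was reversed. Depth limits Klb (26 reads in all), Fgfr1 (2 reads), Nr0b2 (75 reads) and Fgf15 (246 reads).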
